A study of Rattus norvegicus with 10 samples.

Results

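The interferon-stimulated genes described here are 40 genes that the literature groups by their induction by interferon. They were found by matching 41 listed gene symbols to the symbols in a table that the authors deposited. Ddx60 had no row there, and the other 40 are among 23487 genes counted in every library. The list was drawn up with the fold changes between OPC anti-miR-145 and OPC anti-miR-ctl known. The members' values from that contrast are therefore given as a description with no test, whereas the 3 comparisons among oligodendrocytes were tested.

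RNAseq covered 10 libraries of primary rat cells in 5 groups of 2. Oligodendrocyte precursor cells (OPCs) were shaken off mixed glial cultures of Sprague-Dawley rat pup cortex, with a plating step on which other cells adhere. OPCs kept in growth factors received an inhibitor of miR-145-5p (OPC anti-miR-145) or a scrambled inhibitor (OPC anti-miR-ctl), and RNA was taken 24 h later. Oligodendrocytes (OLs) were differentiated from such cells with T3, CNTF and N-acetyl cysteine. The OL groups received the miR-145-5p mimic (OL miR-145), this mimic with a miR-219 mimic (OL miR-145+miR-219) or a scrambled mimic (OL miR-ctl). RNA was taken 5 days after transfection, at differentiation day 5 (DD5), so the mimics were given near the start of differentiation. All 5 groups shared the rat strain, the way the OPCs were isolated and a listed oligonucleotide dose of 30 nM. The methods give no dose for a miR-219 mimic, so whether 30 nM was each mimic or both together is not known. No group was left untransfected. The treatment tag of the 2 OL miR-145 libraries also names miR-219 while their titles name miR-145 alone, and the titles were followed. The study's reporting summary defines a replicate of primary cells as a culture from an individual mouse, while these cells are from rat. The labels give replicate numbers only, so p-values measure the spread between the 2 libraries of a group as deposited.

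Type I interferons bind a cell surface receptor whose JAK kinases activate transcription factors, and STAT2 and IRF9 belong to the complex that then binds the interferon-stimulated response element (ISRE). Interferon gamma acts on a different element, the gamma-activated site (GAS). The induced genes restrict viruses, sense and degrade foreign RNA, conjugate ISG15 to proteins and feed back on the pathway itself, and in the nervous system glia as well as neurons can mount this response.

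To show what the members share in sequence, the promoters of the 4 members with the largest fold change in OPCs among those with an ISRE are printed first. The windows run from 250 bases before to 50 bases after the gene's start in the RefSeq annotation of build GRCr8, written 5′ to 3′ on the gene's strand, with ISRE letters on either strand (GAAA, any 2 bases, GAAA) in capitals. Rsad2 lies on chr6:48788071-48788370 (minus strand), Oasl2 on chr12:47383136-47383435 (minus strand), Oas1a on chr12:41330216-41330515 (plus strand) and Lgals9 on chr10:64428021-64428320 (minus strand).
Rsad2: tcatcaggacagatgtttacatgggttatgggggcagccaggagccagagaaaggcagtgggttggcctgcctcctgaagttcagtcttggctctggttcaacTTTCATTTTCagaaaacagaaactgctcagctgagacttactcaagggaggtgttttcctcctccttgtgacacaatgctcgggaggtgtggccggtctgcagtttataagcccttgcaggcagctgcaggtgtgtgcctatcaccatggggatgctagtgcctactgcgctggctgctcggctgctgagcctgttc
Oasl2: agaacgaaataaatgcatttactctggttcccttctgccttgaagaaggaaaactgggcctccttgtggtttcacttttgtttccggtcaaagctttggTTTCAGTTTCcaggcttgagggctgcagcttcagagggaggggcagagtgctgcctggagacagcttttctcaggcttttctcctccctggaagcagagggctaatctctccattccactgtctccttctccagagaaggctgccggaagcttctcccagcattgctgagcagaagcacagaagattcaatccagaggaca
Oas1a: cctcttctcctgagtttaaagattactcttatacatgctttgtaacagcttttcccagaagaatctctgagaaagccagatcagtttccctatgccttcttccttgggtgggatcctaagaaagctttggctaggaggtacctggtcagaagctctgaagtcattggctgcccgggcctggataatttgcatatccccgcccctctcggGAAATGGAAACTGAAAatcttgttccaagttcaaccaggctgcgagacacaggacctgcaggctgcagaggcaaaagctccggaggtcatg
Lgals9: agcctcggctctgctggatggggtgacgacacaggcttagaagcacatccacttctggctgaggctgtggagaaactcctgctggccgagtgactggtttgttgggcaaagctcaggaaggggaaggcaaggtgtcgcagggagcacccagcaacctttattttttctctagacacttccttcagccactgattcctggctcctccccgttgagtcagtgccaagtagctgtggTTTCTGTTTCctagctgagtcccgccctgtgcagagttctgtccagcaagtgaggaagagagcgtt
The Rsad2 match began 147 bases before the gene's start and the Oasl2 match 151 bases before it. In Oas1a a pair of overlapping matches began 41 and 35 bases before the start. The Lgals9 match began 16 bases before it. In Rsad2, Oasl2 and Lgals9 the match reads on the strand opposite to the gene.

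Of the 40 members, 34 had a promoter in the table, and Isg15, Usp18, Adar, Ifit2, Mx2 and Rtp4 had none. The ISRE letters stood on either strand in 23 of the 34 (67.6%), against 3.92% of all 33469 promoters of the same length. The longer form that ends in GAAACT was present in 10 of the 34 (29.4%) and in 0.278% of all promoters. The GAS letters (TTC, any 3 bases, GAA) were present in 9 of the 34 (26.5%) and in 8.87% of all promoters. Matches of the ISRE and its longer form are nested, and those of the ISRE and GAS can overlap, as in Bst2. A match describes the letters only and is not evidence of a bound site.

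Among the 34 promoters, 17 held the ISRE letters without GAS, 6 held both, 3 held GAS alone and 8 held neither. The 3 with GAS alone were Irf9, Ifi47 and Irf1, and Irf1 and Ifi47 had the smallest fold changes of all members in OPCs. Members with the ISRE letters had a median log2 fold change in OPCs of -2.25, with a range of -4.26 to -1.01. The 11 without them had a median of -1.44 and a range of -3.59 to -0.51, so that the ranges overlapped. Oasl, which held neither motif in its window, had a log2 fold change of -3.59. These fold changes come from the contrast known when the members were listed, and no difference between the motif classes was tested. The 6 members without a promoter, among them Usp18, Isg15 and Rtp4, are in none of the classes.

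**Figure D1:**
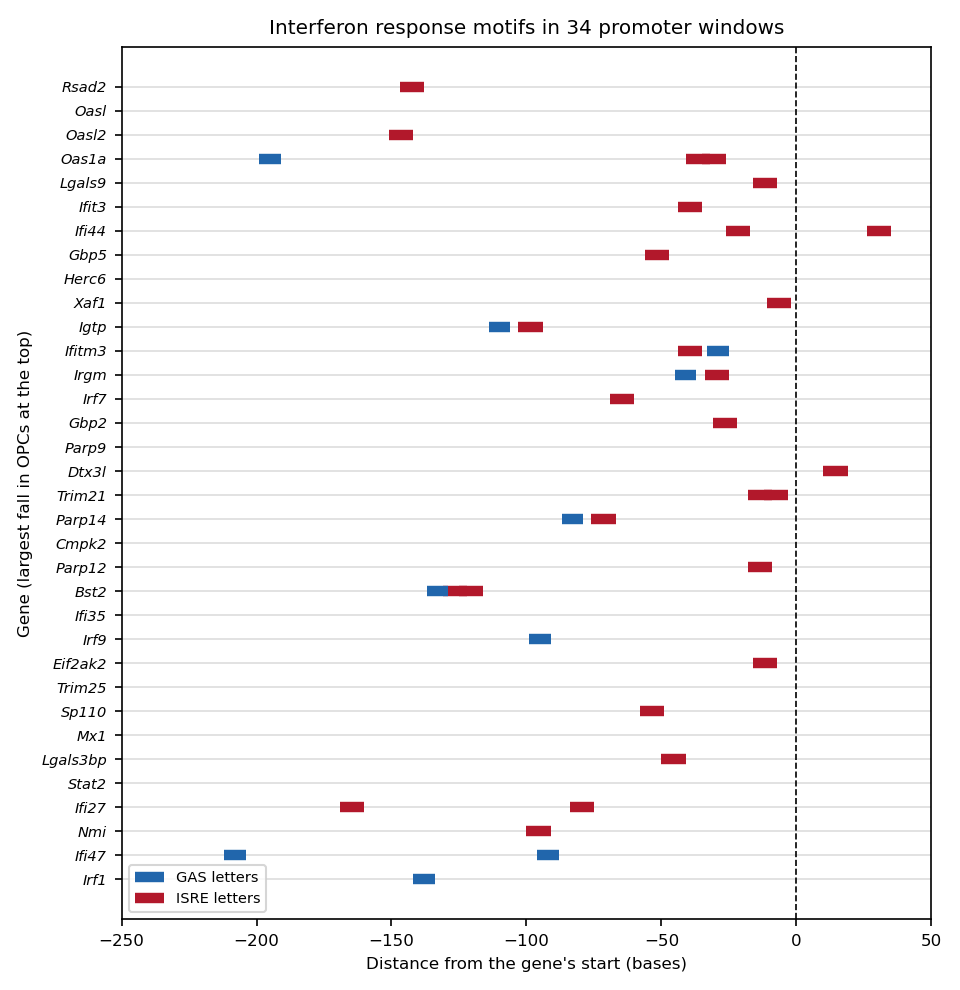
Positions of ISRE letters (red) and GAS letters (blue), in bases from the gene's start (dashed line), in the promoter windows of 34 interferon-stimulated genes, ordered from the largest fall in OPCs at the top to the smallest at the bottom. The 23 promoters with ISRE letters are spread over the order, while the lowest rows, Ifi47 and Irf1, hold GAS letters alone.

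In 3 members a GAS match was followed on the same strand by an ISRE match 2 bases further on. This arrangement occurred in 7 of the 33469 promoters (0.0209%). The stretches of the 3 members are shown because they belong to genes of different roles, Irgm and Igtp (immunity-related GTPases) and Parp14 (a mono-ADP-ribosyltransferase), and they were chosen after the matches were seen. They lie on chr10:33742598-33742628 (minus strand), chr10:42874928-42874958 (plus strand) and chr11:78408042-78408072 (plus strand) of GRCr8, with both motifs in capitals.
Irgm: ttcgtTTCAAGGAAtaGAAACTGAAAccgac
Igtp: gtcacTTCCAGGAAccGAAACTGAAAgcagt
Parp14: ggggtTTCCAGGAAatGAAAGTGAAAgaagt

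The counts assigned to genes summed to between 33505706 and 42684206 per library. The labelled cell types were checked against marker lists, with levels in CPM (counts scaled to a common library size, with TMM factors over the 10 libraries). Mbp, a myelin gene of maturing OLs, lay between 231 and 280 CPM in the 4 OPC libraries and between 6224 and 15517 CPM in the 6 OL libraries. The summed level of 9 OPC markers, among them Pdgfra and Cspg4, lay between 6775 and 8834 CPM in OPC libraries and between 3387 and 4247 CPM in OL libraries. Of these 9, 5 were called lower in OL miR-ctl than in OPC anti-miR-ctl, 3 higher and 1 neither, so the list did not move as one. No marker in the OPC or microglia lists was at 0 in any group. The cultures were not pure, since 15 microglial markers summed to between 538 and 1661 CPM over the 10 libraries.

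All 40 members were lower in OPC anti-miR-145 than in OPC anti-miR-ctl, by between 1.42-fold (Irf1) and 19.2-fold (Rsad2). For every member both anti-miR-145 libraries lay below both anti-miR-ctl libraries. The summed level of the 40 members was 5054 and 4772 CPM in the anti-miR-ctl libraries and 1228 and 1253 CPM in the anti-miR-145 libraries. The level left in anti-miR-145 was a median of 22.0% of that in anti-miR-ctl, ranging from 5.13% to 69.7%. The median log2 fold change was -2.17, against 0.00 over the 15496 genes tested. All 40 would be called lower by edgeR, and they were listed for this, so nothing is read from the count beside the 16% of all genes called lower and the 35.1% whose groups did not overlap with anti-miR-145 lower. Of the 100 genes with the lowest fold changes among 12998 genes at 1 CPM or more, 14 were members, and 22 were among the lowest 200. These ranks use the values known when the members were listed, so nothing is read from them either.

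**Figure D2:**
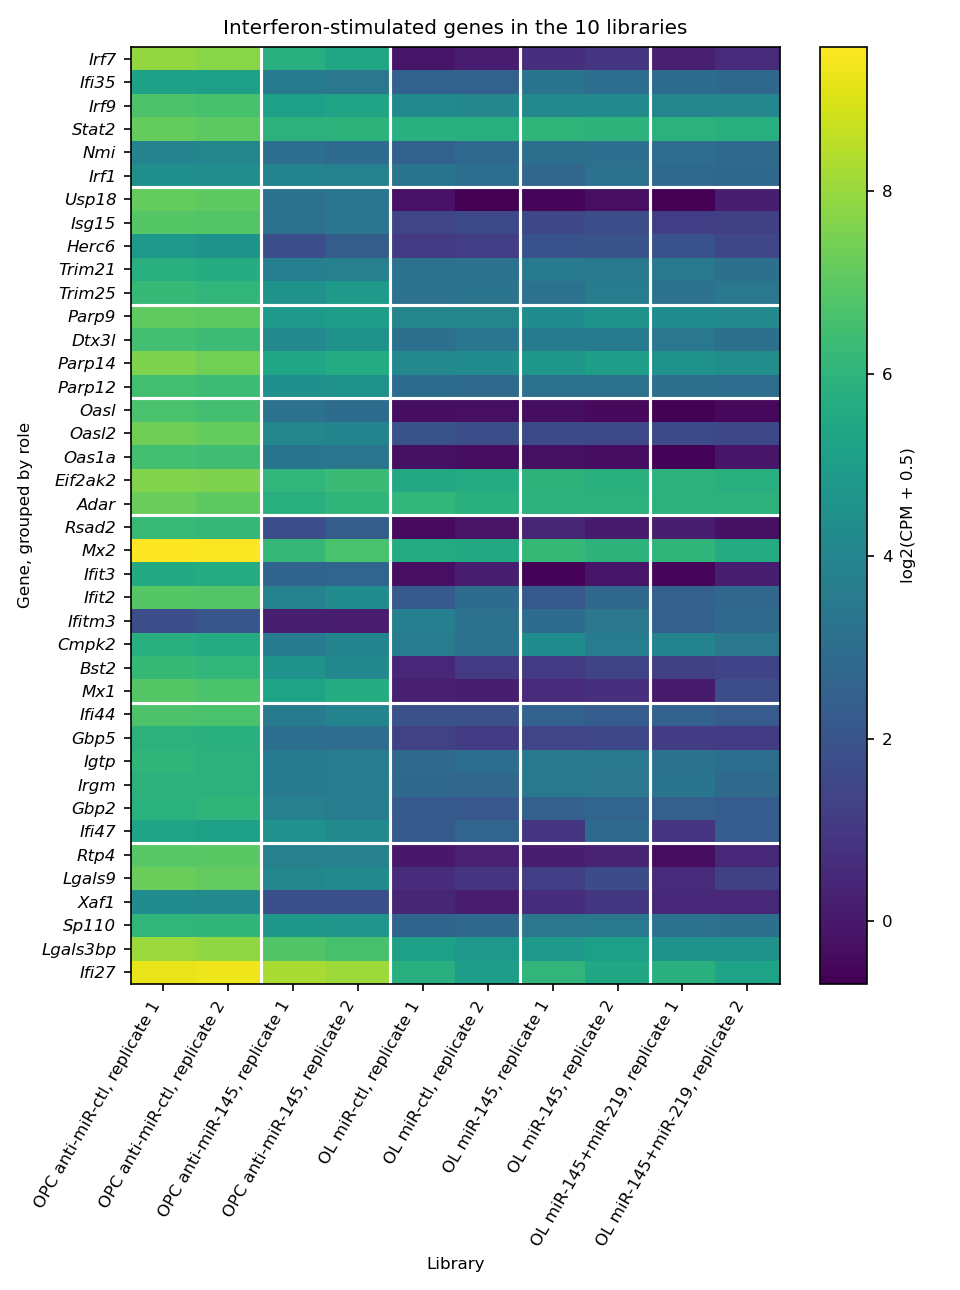
Level of each of 40 interferon-stimulated genes (rows, grouped by role and ordered by fold change in OPCs) in each of 10 libraries (columns, 2 for each group), as log2(CPM + 0.5). The first pair of columns, OPC anti-miR-ctl, is the brightest for every gene except Ifitm3, which is highest in OLs.

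Among the 6 members with a role in signalling and transcription, the median log2 fold change in OPCs was -1.28. Stat2, a subunit of the ISRE-binding complex, was at 141 and 126 CPM in anti-miR-ctl and at 59.5 and 61.9 CPM in anti-miR-145. Irf7, the factor that amplifies type I interferon production, went from 242 and 214 CPM to 54.1 and 40.8 CPM, a log2 fold change of -2.25 ± 0.15 (SE), the largest of the group. Irf1, an activator induced early by interferon gamma, had the smallest change of all members, from 21.3 and 20.0 CPM to 15.0 and 13.7 CPM (-0.51 ± 0.10). Irf9, the DNA-binding subunit of the same complex, lay at -1.44. The interacting pair Nmi and Ifi35, which bind each other in the cytoplasm, lay at -1.01 and -1.71. Nmi was at 14.5 and 15.6 CPM in anti-miR-ctl and at 7.77 and 6.99 CPM in anti-miR-145.

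The ISG15 system had the second largest change, with a median of -2.76 over 5 members. Isg15, the ubiquitin-like protein that is conjugated to targets, was at 116 and 113 CPM in anti-miR-ctl and at 8.66 and 9.54 CPM in anti-miR-145, a 12.5-fold lower level. Usp18, the protease that removes ISG15 and dampens receptor signalling, was at 141 and 130 CPM and at 8.54 and 9.54 CPM (14.8-fold lower). Both genes thus lay an order of magnitude lower, with replicates close to each other. The ligase genes changed less. Herc6, the main ISG15 ligase of rodents, had a log2 fold change of -2.76, Trim21, a cytosolic antibody receptor and ubiquitin ligase, -1.99, and Trim25, which acts on the RNA sensor RIG-I, -1.40.

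The 4 genes of ADP-ribosylation and its partner ligase moved by nearly the same amount, from -2.10 to -1.89. Parp14 was at 192 and 169 CPM in anti-miR-ctl and at 40.9 and 48.9 CPM in anti-miR-145. Parp9, which works in a complex with the ubiquitin ligase DTX3L, was at 135 and 126 CPM and at 28.0 and 32.0 CPM. Dtx3l itself lay at -2.05 and Parp12, another mono-ADP-ribosyltransferase, at -1.89. Parp9, Dtx3l and Parp14 are consecutive protein-coding genes on chromosome 11 of GRCr8.

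The 5 genes that respond to double-stranded RNA had the largest median of the roles, -3.20, with changes of 2 sizes. The first comprised the oligoadenylate synthetase family. Oas1a, whose product activates the nuclease RNase L, was at 90.7 and 86.6 CPM in anti-miR-ctl and at 9.48 and 9.63 CPM in anti-miR-145 (-3.20 ± 0.09). Oasl was at 99.1 and 89.8 CPM and at 8.32 and 7.17 CPM (-3.59 ± 0.12). Oasl2 was at 162 and 143 CPM and at 16.3 and 15.0 CPM (-3.27 ± 0.11). Oasl and Oasl2 are adjacent relatives on chromosome 12, and reads they share can have been split between them. The second comprised Eif2ak2 and Adar, which had smaller changes. Eif2ak2, the kinase PKR that stops translation, was at 201 and 192 CPM and at 67.7 and 78.8 CPM (-1.41 ± 0.09). Adar, the adenosine deaminase that edits double-stranded RNA, was at 150 and 132 CPM and at 55.6 and 65.3 CPM (-1.21 ± 0.10).

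The 8 direct antiviral effectors spanned the widest range, -4.26 to -1.29, with a median of -2.61. Rsad2, which encodes the radical SAM enzyme viperin, was at 76.9 and 70.0 CPM in anti-miR-ctl and at 2.93 and 4.61 CPM in anti-miR-145 (-4.26 ± 0.19). Mx2, a dynamin-like GTPase that blocks viral particles, was at 766 and 734 CPM and at 71.3 and 99.3 CPM (-3.12 ± 0.15). Its relative Mx1 was at 118 and 103 CPM and at 38.6 and 50.7 CPM (-1.29 ± 0.13). The paralogues therefore differed in size of change, and since their reads may be shared, this difference is uncertain. Ifit3, a protein that helps IFIT complexes bind foreign RNA, was at 48.1 and 50.4 CPM and at 5.71 and 5.83 CPM (-3.08 ± 0.10), and the adjacent Ifit2 lay at -2.80. Cmpk2, a nucleotide kinase adjacent to Rsad2 on chromosome 6, lay at -1.94, a smaller change than that of its neighbour. Bst2, also named tetherin because it holds virions at the cell surface, lay at -1.80. Ifitm3, which blocks viral entry from endosomes, was at 2.83 and 3.73 CPM and at 0.621 and 0.590 CPM (-2.42 ± 0.26).

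The 6 interferon-inducible GTPases and related genes had a median of -2.40. Igtp, which acts on vacuoles of intracellular pathogens, was at 65.8 and 59.5 CPM in anti-miR-ctl and at 10.8 and 12.1 CPM in anti-miR-145. Irgm, which regulates the other members of this family, was at 60.4 and 59.2 CPM and at 11.2 and 11.9 CPM. Gbp5, a guanylate-binding protein, was at 59.7 and 57.2 CPM and at 7.77 and 7.38 CPM (-2.93 ± 0.10), and its relative Gbp2 lay at -2.25. Ifi44 had the largest change of these 6, from 105 and 99.3 CPM to 11.0 and 14.9 CPM (-2.97 ± 0.14). Ifi47 was the exception, at 38.9 and 34.8 CPM and at 22.3 and 18.2 CPM (-0.85 ± 0.13).

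Of the other 6 members, Rtp4, a receptor transporter protein, was at 121 and 124 CPM in anti-miR-ctl and at 13.3 and 13.2 CPM in anti-miR-145 (-3.20 ± 0.09). Lgals9, the secreted lectin galectin-9, was at 154 and 137 CPM and at 15.7 and 17.7 CPM (-3.11 ± 0.10). Ifi27 was at 611 and 637 CPM and at 312 and 268 CPM (-1.09 ± 0.11). Lgals3bp, a secreted glycoprotein that binds galectins, was at 259 and 238 CPM and at 111 and 95.3 CPM. Sp110, a nuclear body protein, lay at -1.34 and Xaf1, a proapoptotic partner of XIAP, at -2.60.

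**Figure D3:**
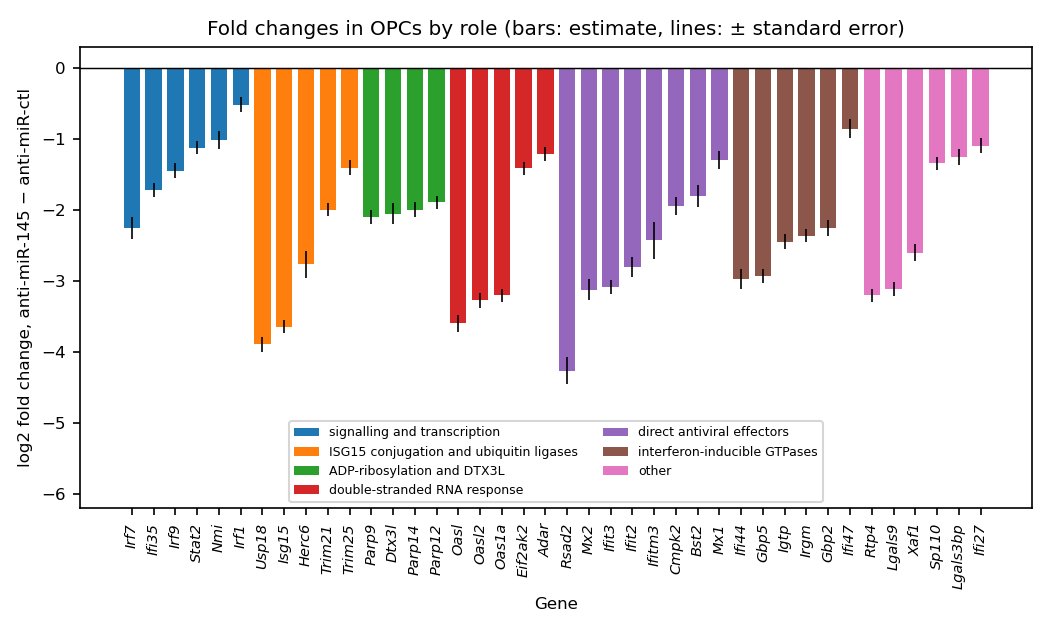
Fold changes of the 40 members between OPC anti-miR-145 and OPC anti-miR-ctl on the log2 scale (bars) with standard errors (lines, 2 libraries in each group), coloured by role. Every bar lies below 0, from -4.26 for Rsad2 to -0.51 for Irf1.

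Because these are bulk libraries, fewer cells of a type and less RNA per cell cannot be told apart. The 15 microglial markers summed to 1661 and 1543 CPM in anti-miR-ctl and to 1418 and 1106 CPM in anti-miR-145. Of these 15, 8 were called higher in anti-miR-145 (C1qb by 1.34 ± 0.12 and Trem2 by 1.67 ± 0.17 on the log2 scale), 6 were called lower (Lyz2 by -1.83 ± 0.22 and Itgam by -1.58 ± 0.10) and 1 was not called. The sum of 10 astrocyte markers was 689 and 650 CPM in anti-miR-ctl and 478 and 530 CPM in anti-miR-145, but of 9 tested 2 were called higher, 4 lower and 3 neither, with a median log2 fold change of 0.27. The sum of 5 endothelial markers was 12.4 and 11.5 CPM and 3.03 and 3.41 CPM, most of it from Flt1, with 4 of the 5 under 1 CPM in both groups. The sum of 8 neuronal markers was 617 and 583 CPM against 564 and 711 CPM, with 4 called higher and 0 lower (median 0.47), and 7 fibroblast or mural markers summed to 12.1 and 11.6 CPM against 11.1 and 9.72 CPM. The part of these cell types in the change of the members was not tested.

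The listed pathway genes that are not members did not move as one in OPCs. Stat2, Irf9, Irf7 and Irf1, which also act in the pathway, are members, were all lower there and are not in this list. Of 35 pathway genes listed, 23 were analysed here and 12 were not, among them the interferon genes. The list was drawn up with earlier results of these data known, so its calls and p-values are a description and not an independent test. Of the 23, edgeR called 5 higher (background 12.1% of genes), 4 lower (background 16%) and 14 neither, with a median log2 fold change of 0.03. The type I receptor gene Ifnar1 was at 108 and 107 CPM in anti-miR-ctl and at 117 and 121 CPM in anti-miR-145 (0.16 ± 0.08, adjusted p = 0.173 with edgeR). Its partner Ifnar2 (0.16 ± 0.10, edgeR adjusted p = 0.271) and the kinase genes Jak1 (-0.08 ± 0.09, edgeR adjusted p = 0.523) and Tyk2 (0.04 ± 0.09, edgeR adjusted p = 0.797) were not called either.

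Of the 9 pathway genes called in OPCs, 5 were inhibitors of the pathway. Because the list was drawn up with earlier results known, the p-values of these genes are likewise a description. Stat3, which transmits cytokines of the interleukin-6 family, was higher at 573 and 618 CPM against 381 and 368 CPM (0.68 ± 0.08, edgeR adjusted p = 0.00115). Socs3, an inhibitor induced through STAT3, was at 25.1 and 25.0 CPM against 10.0 and 10.1 CPM (1.33 ± 0.10, edgeR adjusted p = 0.000154). Socs1, the inhibitor of interferon signalling, was lower at 0.621 and 0.999 CPM against 1.82 and 1.89 CPM (-1.18 ± 0.30, edgeR adjusted p = 0.0262). These inhibitors thus moved in opposite directions. Irf8 (1.26 ± 0.15), Cish (0.86 ± 0.21) and Irf2 (0.29 ± 0.08) were the others called higher, and Ptpn6 (-1.42 ± 0.19), Irf5 (-1.21 ± 0.17) and the interferon gamma receptor gene Ifngr2 (-0.39 ± 0.11) the others called lower.

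In OLs the members lay far below their level in OPC anti-miR-ctl. The summed level was 489 and 443 CPM in OL miR-ctl, 572 and 558 CPM in OL miR-145 and 521 and 464 CPM in OL miR-145+miR-219. Both OPC anti-miR-ctl libraries lay above all 6 OL libraries for 39 members and below all of them for Ifitm3. The level in OPC anti-miR-ctl was a median of 10.0 times the median OL level, over 100 times for 8 members and 511 times for Usp18. The median log2 fold change from OPC anti-miR-ctl to OL miR-ctl was -3.71, with 39 members called lower (background 28.7%) and Ifitm3 called higher (background 28.8%). This comparison shares the OPC anti-miR-ctl libraries with the contrast used to list the members, so nothing is read from those counts. Differentiation, the kind of control oligonucleotide and the time after transfection differed together and cannot be told apart. The 15 microglial markers summed to 1661 and 1543 CPM in OPC anti-miR-ctl and to 545 and 771 CPM in OL miR-ctl, with 7 called lower, 2 higher and 6 neither, and of the 8 neuronal markers 6 were called lower and 0 higher. The 10 astrocyte markers summed to 689 and 650 CPM and to 6462 and 5439 CPM, with 9 called higher. The part of these cells in the difference of the members was not tested.

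The largest differences between stages were those of genes close to the limit of detection in OLs. Usp18 had between 4 and 23 counts in the OL libraries, at 0.377 and 0.123 CPM in OL miR-ctl, and passed the filter on low counts only through the higher group in 3 of the comparisons. Irf7 was at 0.427 and 0.614 CPM in OL miR-ctl, Oas1a at 0.352 and 0.307 CPM and Oasl at 0.302 and 0.338 CPM, each under 1 CPM against 86.6 CPM or more in OPC anti-miR-ctl. Other members were well above the limit of detection in OLs. Adar was at 69.6 and 56.7 CPM in OL miR-ctl, Stat2 at 56.8 and 53.4 CPM, Mx2 at 49.6 and 46.6 CPM and Eif2ak2 at 45.7 and 49.0 CPM. Ifitm3 went the opposite way, at 13.1 and 8.63 CPM in OL miR-ctl against 2.83 and 3.73 CPM in OPC anti-miR-ctl.

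The OPC anti-miR-145 libraries fell between these levels. For 33 members both lay above all 6 OL libraries, at a median of 2.95 times the median OL level over the 40 members. For Stat2, Nmi, Herc6, Adar, Mx2 and Cmpk2 they lay within or overlapped the range of the OL libraries, and for Ifitm3 below it. Adar, for example, was at 55.6 and 65.3 CPM in OPC anti-miR-145 and between 56.7 and 69.6 CPM in OLs. Mx1 was at the other end, at 38.6 and 50.7 CPM against 0.543 to 2.86 CPM in OLs.

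**Figure D4:**
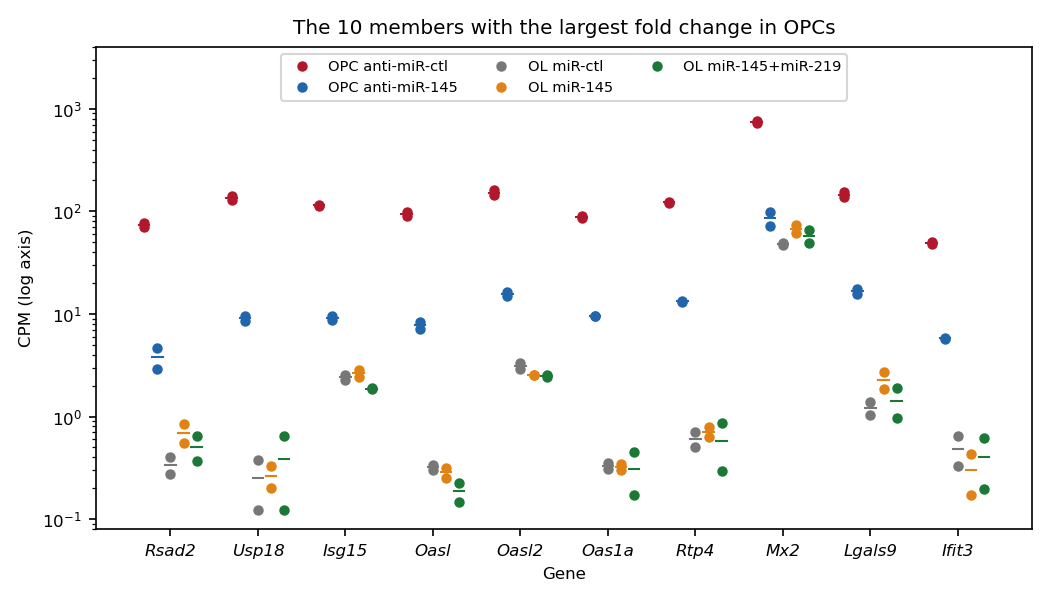
Level in CPM (log axis) of the 10 members with the largest fold change in OPCs, in each library (points, 2 for each of 5 groups) with the group mean (short lines). OPC anti-miR-ctl libraries are highest for all 10, OPC anti-miR-145 libraries come next, and the 3 OL groups lie below, except that Mx2 in OLs reaches the range of OPC anti-miR-145.

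To ask whether the miR-145 mimic changed the members in OLs, OL miR-145 was compared with OL miR-ctl, which shares no library with the OPC contrast. Small differences above 0 were the most frequent, but none passed after adjustment in the main edgeR test, which had no replicate term. That test called 0 of the 40 members at an adjusted p under 0.05, and it also called 0 of the 15461 genes tested (0%). At an unadjusted p under 0.05 there were 12 members, all with a higher level in OL miR-145, against 8.99% of all genes (DESeq2 called 3 members after adjustment, and 4.2% of all genes). The median log2 fold change of the members was 0.34, against -0.01 over all genes. It was above 0 for 31 of the 40, against 48.4% of all genes. Both OL miR-145 libraries lay above both OL miR-ctl libraries for 24 members (background 22.9%) and below them for 1, Oasl2 (background 24.4%).

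In the main edgeR test the smallest p-values belonged to Irgm, Sp110 and Parp14. Irgm was at 6.18 and 5.99 CPM in OL miR-ctl and at 10.7 and 10.1 CPM in OL miR-145, a log2 fold change of 0.77 ± 0.17 (SE, edgeR adjusted p = 0.19). Sp110 was at 5.63 and 6.14 CPM and at 9.92 and 10.3 CPM (0.79 ± 0.18, edgeR adjusted p = 0.19). Parp14 was at 17.3 and 19.0 CPM and at 26.2 and 32.8 CPM (0.71 ± 0.16, edgeR adjusted p = 0.19). For these 3 genes the groups did not overlap. DESeq2 placed all 3 past the threshold, with adjusted p of 0.0327 for Irgm, 0.0326 for Sp110 and 0.0278 for Parp14.

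By role, the medians in OL miR-145 were 0.56 for the other members, 0.55 for direct antiviral effectors, 0.49 for GTPases, 0.40 for ADP-ribosylation, 0.33 for signalling and transcription, 0.21 for the ISG15 system and -0.07 for the double-stranded RNA response. The order differs from that in OPCs, where the double-stranded RNA response had the largest change. Irf7 had the highest value, at 0.427 and 0.614 CPM in OL miR-ctl and at 1.15 and 1.41 CPM in OL miR-145 (1.31 ± 0.40, edgeR adjusted p = 0.271). Herc6 was at 1.56 and 1.75 CPM and at 3.29 and 3.36 CPM (1.01 ± 0.26, edgeR adjusted p = 0.217). Isg15 was at 2.29 and 2.52 CPM and at 2.42 and 2.85 CPM, with overlapping groups (0.14 ± 0.27, edgeR adjusted p = 0.85). Ifit3 had the lowest value, at 0.327 and 0.645 CPM and at 0.173 and 0.429 CPM (-0.65 ± 0.65, edgeR adjusted p = 0.702).

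**Figure D5:**
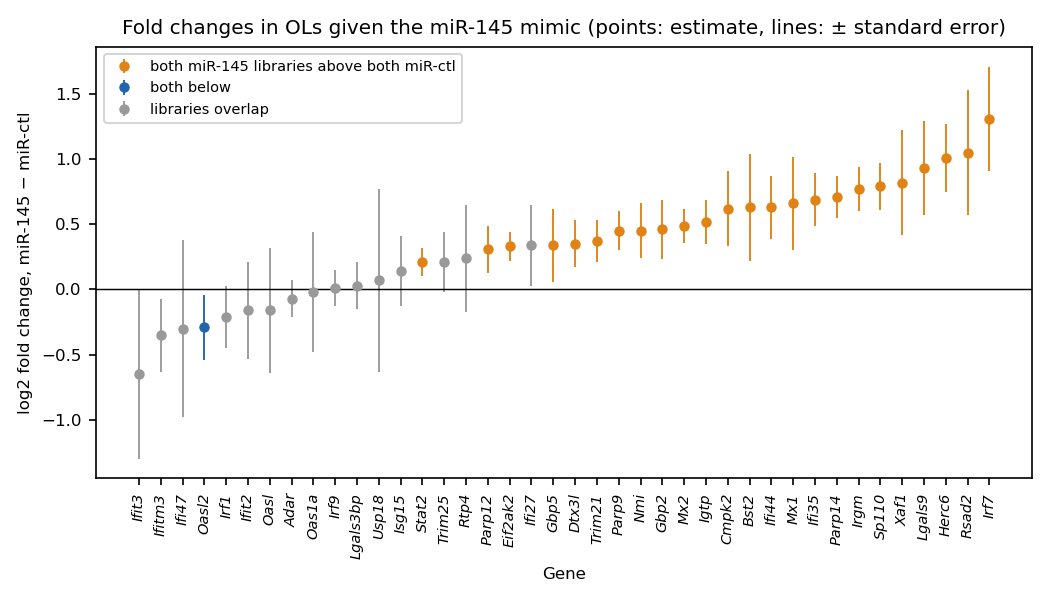
Fold changes of the 40 members between OL miR-145 and OL miR-ctl on the log2 scale (points) with standard errors (lines, 2 libraries in each group), ordered by size. For 24 members (orange) both OL miR-145 libraries lie above both OL miR-ctl libraries and for Oasl2 (blue) below. No member passed after adjustment in the main edgeR test, which had no replicate term. With such a term 10 members and 2272 of 15461 genes were called.

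The marker lists of other cells did not move as one between these libraries. The 10 astrocyte markers summed to 6462 and 5439 CPM in OL miR-ctl and to 13240 and 8991 CPM in OL miR-145. Of these 10, 8 were higher without overlap (background 22.9%). The 7 fibroblast or mural markers summed to 39.2 and 29.5 CPM and to 64.6 and 103 CPM. The 15 microglial markers summed to 545 and 771 CPM and to 582 and 1287 CPM, so the sums overlapped. Of these 15, 5 were higher without overlap (background 22.9%). The OL gene Mbp was at 6224 and 13143 CPM and at 6236 and 10665 CPM. The 5 endothelial markers summed to 27.7 and 19.4 CPM and to 14.4 and 10.2 CPM, and the 8 neuronal markers to 410 and 276 CPM and to 421 and 355 CPM. None of these markers was called by edgeR, and the part of these cells in the values of the members was not tested.

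With miR-219 added to miR-145, the median of the members lay nearer to that of all genes. In OL miR-145+miR-219 against OL miR-ctl, edgeR called 0 of the 40 members and 0 of 15436 genes (0%). At an unadjusted p under 0.05 there were 3 members (background 6.19%). Sp110 was at 8.52 and 8.05 CPM in OL miR-145+miR-219 (0.50 ± 0.17, edgeR adjusted p = 0.80). Ifi44 was at 3.17 and 3.10 CPM in OL miR-ctl and at 5.29 and 4.35 CPM in OL miR-145+miR-219 (0.62 ± 0.22, edgeR adjusted p = 0.80). Ifitm3 was at 13.1 and 8.63 CPM and at 4.97 and 6.82 CPM (-0.88 ± 0.29, edgeR adjusted p = 0.80). In these 3 genes the groups did not overlap, with Ifitm3 lower and the other two higher. The median over the members was 0.19, against 0.00 over all genes, with 26 members above 0 (background 50.3%), 15 higher without overlap (background 17.3%) and 8 lower without overlap (background 19.4%).

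In OL miR-145+miR-219 against OL miR-145, edgeR again called 0 of the 40 members and 0 of 15501 genes (0%), and 1 member had an unadjusted p under 0.05 (background 1.47%). This was Lgals3bp, at 28.6 and 34.5 CPM in OL miR-145 and at 22.7 and 23.5 CPM in OL miR-145+miR-219 (-0.46 ± 0.14, edgeR adjusted p = 1.0). Next by p were Parp14, at 23.7 and 20.7 CPM with both mimics (-0.42 ± 0.16), and Gbp5, at 1.63 and 1.63 CPM against 2.28 and 2.42 CPM (-0.54 ± 0.25). The log2 fold change was below 0 for 35 of the 40 (background 50.7%), with a median of -0.23 against 0.00 over all genes, and 19 members were lower without overlap (background 11.2%) while 0 were higher (background 13.6%). The marker lists of other cells did not move as one against OL miR-145. On the log2 scale the median difference was -0.48 for 15 microglial, -0.33 for 10 astrocyte and -0.58 for 7 fibroblast or mural markers. It was 0.05 for 5 endothelial and -0.06 for 8 neuronal markers. Lower without overlap were 1 microglial, 3 astrocyte, 3 fibroblast or mural, 1 endothelial and 1 neuronal marker (background 11.2%). Against OL miR-ctl the medians were 0.27 for microglial, 0.54 for astrocyte, -0.74 for endothelial and -0.05 for neuronal markers. The median was 1.02 for the 5 fibroblast or mural markers tested. Of the 10 astrocyte markers 5 were higher without overlap, and of the 15 microglial markers 5 (background 17.3%). None of these was called, and their part in the values of the members was not tested. The 3 OL comparisons share libraries in pairs, so their values are not independent of each other. Of the 23 pathway genes, 22 were tested in OL miR-145 against OL miR-ctl and 23 in the other OL comparisons. The main edgeR test called 0 of them, as it called 0 of all genes, so nothing is read from this count.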

How the data were processed

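RNAseq was analysed in 10 libraries, 2 for each of 5 groups. Per the labels and methods, the authors made TruSeq stranded mRNA libraries, quantified rat GENCODE transcripts (Salmon 0.12.0) and deposited estimated counts summed per gene with tximport, not normalized. In each library 16.0% to 17.5% of values had a fraction and all were rounded. With totals of 33505706 to 42684206, depth matters for weakly expressed genes and the 2 libraries of a group set the precision elsewhere. The authors also deposited a DESeq2 table of OL miR-145 against OL miR-ctl. Only its symbols were used (14561 of 16129 genes), and its mean signal, log2 fold changes with standard errors, Wald statistics and p-values were not. Lentiviral transduction is named in the RNAseq methods, while the labels name mimics and inhibitors.

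The members and lists were chosen with earlier results of these data known. Each of 5 comparisons was fitted on its 4 libraries with edgeR 4.0.16 in R 4.3.3 (TMM, quasi-likelihood test, a minimum of 5 counts in 2 or more libraries, Benjamini-Hochberg adjustment over all genes tested, calls at an adjusted p under 0.05), and the functions were tested on simulated data. All 40 members passed the filter in every comparison. The standard error is the size of the log2 fold change divided by the square root of F. Groups do not overlap where both libraries of one lie above both of the other. Genes given values by library are the 10 with the largest and the 5 with the smallest fold change in OPCs, the 3 with the smallest p in each OL comparison and the 2 with the highest level of each role; Herc6 was added after its values were seen. Promoters and gene order came from RefSeq (GRCr8), used for names, gene order and the printed sequences, since counts were made on another build. Alternatives were DESeq2 1.42.0, its size factors within edgeR, other filters, all 5 groups in a single fit, a replicate block and leaving out each library. Figures were drawn with Python 3.11.15 and matplotlib 3.10.9.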

Additional observations from a re-analysis of the deposited data

How the results depend on the processing

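No result reversed. In OL miR-145 against OL miR-ctl, where edgeR called 0 members, DESeq2 called 3 (Parp14, Irgm and Sp110) and all 5 groups in a single fit called 1 (Sp110, 0.78), and over all genes the count went from 0 to 649 and 32. The study's reporting summary defines a replicate of primary cells as a culture from an individual mouse and gives no definition for rat cultures. No source used here says that libraries of different groups with the same number came from the same culture. Deviations from the group means of same-numbered libraries correlated at 0.237, 0.236 and 0.422 in the OL comparisons and at -0.0738 and 0.0295 in those with OPCs. With a replicate block, 10 members were called in OL miR-145 against OL miR-ctl (Mx2, Cmpk2, Ifi27, Irf7, Ifi35, Parp14, Parp9, Herc6, Irgm and Sp110, all higher), and over all genes the block gave 2272 calls there, 132 in OL miR-145+miR-219 against OL miR-ctl and 184 against OL miR-145, each from 0. DESeq2 gave 106 and 9 calls over all genes in those last comparisons, and no filter gave 1 in the former.

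The median of the members in OL miR-145+miR-219 against OL miR-ctl (0.19) was 0.22 with at least 10 counts in every library and 0.14 to 0.18 with a library left out. Leaving out a library gave medians of 0.33 to 0.39 for OL miR-145 against OL miR-ctl, -0.30 to -0.20 for OL miR-145+miR-219 against OL miR-145 and -3.75 to -3.56 for OL miR-ctl against OPC anti-miR-ctl, which was -3.62 with at least 10 counts. In the OPC contrast it gave 39 to 40 members called and medians of -2.19 to -2.13, the member lost being Irf1 without anti-miR-ctl replicate 1. All 5 groups in a single fit did not call Irf1, Mx1 and Ifi47 there and called 2553 genes in place of 4348. That total was 7133 without anti-miR-145 replicate 2, 2348 without anti-miR-ctl replicate 1 and 2407 without anti-miR-ctl replicate 2. The cause of these shifts was not tested.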

Other observations

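The order of the replicates in the OL groups is given for the members beside all genes. Replicate 2 lay above replicate 1 in all 3 OL groups for 9 of the 40 members and for 21.8% of 15461 genes, and below it in all 3 for 10 of the 40 and for 25.6% of genes. Ifi47, for example, was at 1.41 and 6.54 CPM in OL miR-145 and at 1.38 and 4.41 CPM in OL miR-145+miR-219. An OL miR-145 library was the highest of the 6 OL libraries for 26 of the 40 members (12 for replicate 1 and 14 for replicate 2) and for 36.7% of genes.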
